A study of Mus musculus with 8 samples.

Results

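Transcript levels of 10 transcription factors of myeloid fate were followed in CD11b+Gr-1hi and CD11b+Gr-1lo cells sorted from sanroque mice, from the bone marrow (BM) and the spleen (SP). They are Spi1, Cebpa, Cebpb, Cebpd, Cebpe, Runx1, Myb, Gfi1, Irf8 and Klf4, taken by symbol from the 54188 genes of an RNA-seq count table. Each symbol matched 1 row, and all 10 genes were among the 17650 that passed the filter on low counts. Sanroque mice are homozygous for the san allele of Roquin (Roquin san/san) on a C57BL/6 background and develop lupus-like autoimmunity. All 8 libraries came from this genotype at 20 weeks of age and are labelled female, so neither tissue has a wild-type library. The 4 groups, with 2 libraries each, were SP Gr-1hi (libraries 5 and 6), SP Gr-1lo (7 and 8), BM Gr-1hi (9 and 10) and BM Gr-1lo (11 and 12), and the labels call the Gr-1hi cells G-MDSCs and the Gr-1lo cells M-MDSCs. MDSCs are myeloid-derived suppressor cells, and the spleen-derived cells are called SDMCs in the study. The study describes the 2 libraries of a group as biological replicates, but which libraries share a mouse is not stated.

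In myeloid development PU.1, the ETS-family product of Spi1, opens chromatin in nearly all myeloid cells, and the C/EBP proteins bind beside it and act in sequence from the granulocyte-macrophage progenitor to the mature neutrophil. The choice between the granulocyte and the monocyte path is set by factors that oppose each other: GFI1 represses the monocyte program, whereas IRF8 and KLF4 drive it. RUNX1 and MYB act upstream, in stem and progenitor cells, and MYB declines as cells mature.

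Core promoter sequence is shown for 4 of the factors, the ones whose transcripts fell in Gr-1hi cells, so that the letters upstream of each start site can be read beside the levels. The sequences are from RefSeq on GRCm38.p6, 5′ to 3′ on the strand of the gene, and end at the base before the start site. The table matched 7 of the 10 genes, and Cebpd, Cebpe and Spi1 had no entry. Capitals mark TTGCG (the core of a C/EBP site), GGAAG (the GGAA core of an ETS site with a G after it) and TATAAA (the letters of the box that the TATA-binding protein recognises), each searched on both strands. GGAA before another base is left in lower case, and the Cebpa, Irf8 and Myb windows hold it. ACCACA (RUNX) was also searched, and matched none of the 10 windows of the 7 genes. GGGCGG (a GC box) was searched as well and is left in lower case, and it matched 4 of the 10 windows, among them those of Irf8, Klf4 and Myb. The windows are Cebpa at chr7:35119043-35119292 on the plus strand, Irf8 at chr8:120736108-120736357 on the plus strand, Klf4 at chr4:55532476-55532725 on the minus strand and Myb at chr10:21160985-21161234 on the minus strand.
Cebpa: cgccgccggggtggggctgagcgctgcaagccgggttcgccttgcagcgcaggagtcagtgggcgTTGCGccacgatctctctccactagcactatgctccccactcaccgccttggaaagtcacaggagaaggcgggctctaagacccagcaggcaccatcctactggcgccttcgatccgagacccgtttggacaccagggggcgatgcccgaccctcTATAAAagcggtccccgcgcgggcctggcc
Irf8: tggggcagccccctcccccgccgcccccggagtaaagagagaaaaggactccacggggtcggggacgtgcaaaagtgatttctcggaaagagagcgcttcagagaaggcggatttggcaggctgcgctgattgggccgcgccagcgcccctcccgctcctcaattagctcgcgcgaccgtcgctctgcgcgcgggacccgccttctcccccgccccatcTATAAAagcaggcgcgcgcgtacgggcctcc
Klf4: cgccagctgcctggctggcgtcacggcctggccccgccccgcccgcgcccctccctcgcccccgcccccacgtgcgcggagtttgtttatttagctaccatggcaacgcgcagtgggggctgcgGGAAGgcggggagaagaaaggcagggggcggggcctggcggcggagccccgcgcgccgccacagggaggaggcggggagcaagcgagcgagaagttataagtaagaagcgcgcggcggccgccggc
Myb: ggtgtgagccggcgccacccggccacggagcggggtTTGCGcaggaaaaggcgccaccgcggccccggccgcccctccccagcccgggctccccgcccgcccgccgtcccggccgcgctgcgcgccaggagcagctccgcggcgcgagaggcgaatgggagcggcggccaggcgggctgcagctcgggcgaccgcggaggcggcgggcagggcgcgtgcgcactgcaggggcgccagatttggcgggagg

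The Cebpa window holds TTGCG with its first base 185 bases before the start site, and TATAAA 30 bases before it. TTGCG also lies 214 bases before the start of Myb, and TATAAA lies 31 bases before the start of Irf8. GGAAG lies 126 bases before the start of Klf4. Among 32851 promoter windows of 250 bases, TTGCG was present in 14.5%, GGAAG in 64.1%, ACCACA in 14%, GGGCGG in 32.7% and TATAAA in 12.4%. The matches describe the letters only, since no binding was measured.

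Sequencing depth ranged from 33453580 to 68316154 counts per library, and the lowest count of any of the 10 genes in any library was 36, for Klf4. Levels are given as CPM, counts scaled to a common library size by TMM. Ly6g, the antigen gene of the Gr-1 sort, was 743 CPM on average in BM Gr-1hi, 412 in SP Gr-1hi and 4.21 to 6.98 in the Gr-1lo groups, which follows from the gate. Csf1r, a monocyte receptor gene, averaged 453 to 709 CPM where the labels say Gr-1lo and 154 to 319 where they say Gr-1hi. Xist, expressed from the inactive X chromosome of females, had 12032 counts in library 5 and 9898 in library 7 but 0 to 5 in the other 6. The Y-linked Ddx3y had 0 counts in library 5 and 1595 to 4902 in the remaining 7, library 7 included. Thus 6 libraries went against the female label and library 7 carried transcripts of both sexes, so results that rest on libraries 5 and 7 are also given without them. In bulk libraries, fewer cells of a type and less RNA per cell cannot be told apart.

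For most of the 10 factors the levels separated the sorted subsets more than the tissues, but Myb and Cebpb differed about as much between tissues as between subsets. Spi1, Cebpd and Cebpe were highest in Gr-1hi cells, Irf8, Klf4 and Cebpa were highest in Gr-1lo cells, and Runx1 was nearly flat. Myb was higher in Gr-1lo than in Gr-1hi cells within each tissue, but its SP Gr-1lo level was close to that of BM Gr-1hi. Cebpb was highest in SP Gr-1hi, and Gfi1 was highest in BM Gr-1lo. Per kb of exon, which allows levels of different genes to be compared, Spi1 was the most abundant of the 10 in each group at 96.9 to 298 CPM per kb, above 97.2% to 98.8% of the genes measured. Klf4 and Irf8 covered the widest range, from 0.735 CPM per kb and 1.12 CPM per kb in BM Gr-1hi to 56.4 and 40.0 CPM per kb in BM Gr-1lo.

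**Figure D1:**
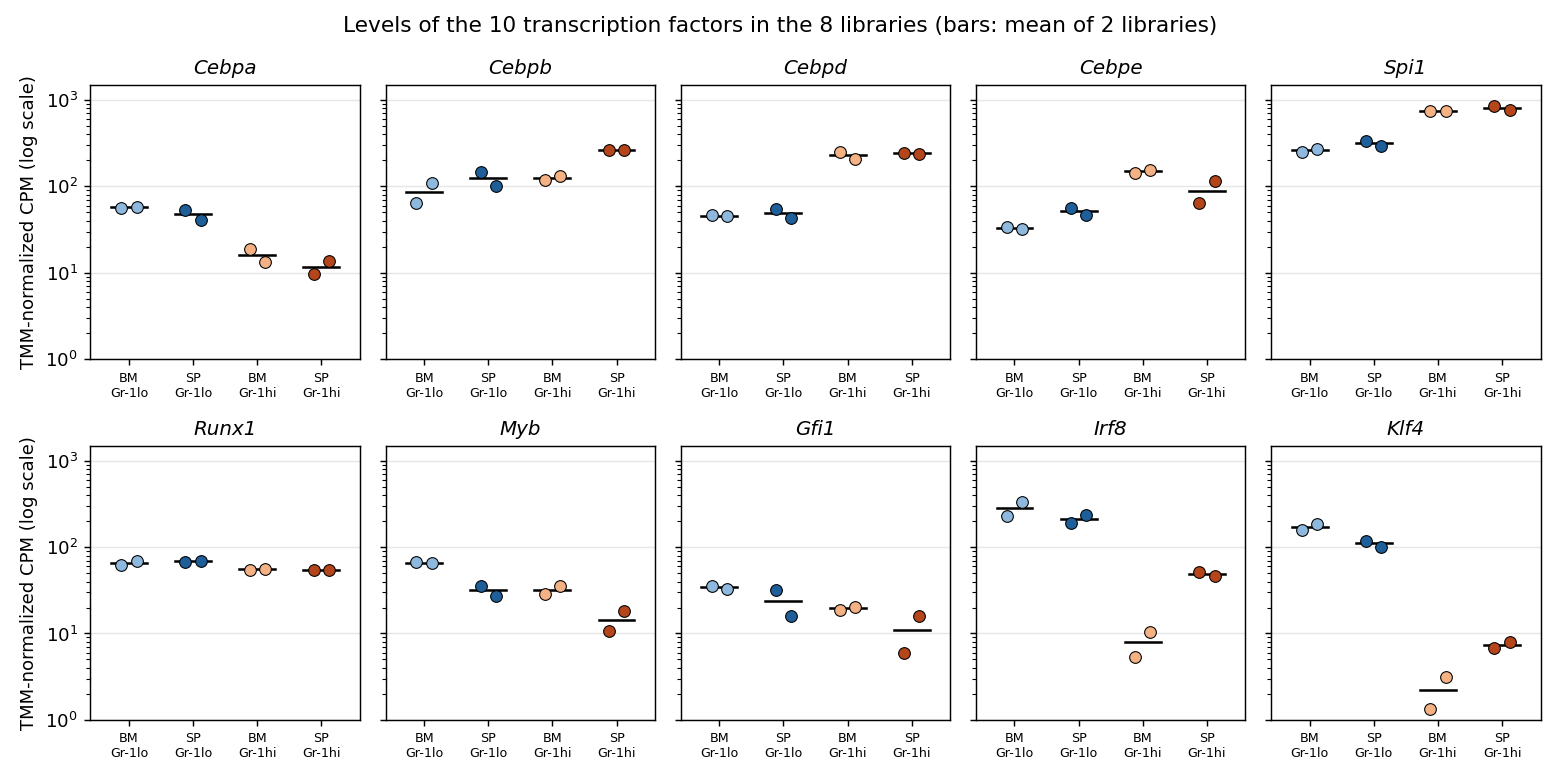
TMM-normalized CPM on a log axis for the 10 factors, with 1 point per library, a bar at the mean of 2 libraries, and the 4 groups along the horizontal axis. Irf8 lies at 5.38 to 10.5 CPM in BM Gr-1hi and at 46.6 to 51.0 CPM in SP Gr-1hi, whereas Runx1 stays between 54.0 and 69.0 CPM in all 8 libraries.

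The first comparison asked how the factors differ between the 2 sorted subsets within a tissue. A gene was called when its fold change (FC) was 2 or more and its adjusted p was 0.05 or less in edgeR's quasi-likelihood test. In BM, 3 of the 10 factors were higher in Gr-1hi cells, where 24.2% of all genes tested were called higher, and 4 were lower, where 33.1% of all genes were called lower. In SP, 3 factors were higher, beside 22.3% of all genes, and 4 were lower, beside 27.4% of all genes. The median log2 FC of the 10 factors was −0.53 in BM and −0.72 in SP, against −0.17 and −0.09 over all genes tested. At the stricter rule that the study used for these subsets (adjusted p below 0.01 and FC above 8), 0 factors were higher and 2 lower in BM, and 0 were higher and 1 lower in SP. The shares of all genes called by this rule were 6.56% higher and 10.1% lower in BM, and 4.44% higher and 2.93% lower in SP.

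Spi1 rose in Gr-1hi cells of both tissues. It measured 253 and 269 CPM in BM Gr-1lo and 334 and 298 CPM in SP Gr-1lo. In Gr-1hi cells it measured 755 and 739 CPM in BM and 845 and 760 CPM in SP, so each Gr-1hi library was above each Gr-1lo library. The log2 FC was 1.52 ± 0.10 (SE) in BM and 1.35 ± 0.10 in SP, with edgeR adjusted p = 1.55e-06 and 5.16e-06. On quantile-normalized TPM the log2 FC fell to 0.996 and 0.90, under the FC threshold.

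Cebpd, whose product C/EBPδ appears late in granulocyte development and in inflammation, showed a still larger difference. Its level was 46.4 and 45.0 CPM in BM Gr-1lo, 54.5 and 42.9 CPM in SP Gr-1lo, 250 and 209 CPM in BM Gr-1hi, and 244 and 238 CPM in SP Gr-1hi. The 2 tissues overlapped within each subset, and the 2 subsets were far apart. The log2 FC between subsets was 2.33 ± 0.14 in BM (edgeR adjusted p = 8.76e-07) and 2.31 ± 0.14 in SP (edgeR adjusted p = 1.97e-06).

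Cebpe encodes C/EBPε, which is required for the secondary granule genes of neutrophils. It measured 33.6 and 32.2 CPM in BM Gr-1lo and 144 and 154 CPM in BM Gr-1hi, a log2 FC of 2.18 ± 0.25 (edgeR adjusted p = 7.06e-05). In SP the values were closer, 56.3 and 46.3 CPM in Gr-1lo and 63.5 and 114 CPM in Gr-1hi. Library 5 was nearer to the SP Gr-1lo libraries than to library 6. The SP log2 FC of 0.79 ± 0.24 (edgeR adjusted p = 0.0170) did not reach an FC of 2, and it was called without library 5 (1.13) and without libraries 5 and 7 (1.28).

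Cebpa, which encodes the C/EBPα that starts the granulocyte-macrophage program in progenitors, went the other way. It fell from 56.1 and 57.9 CPM in BM Gr-1lo to 19.0 and 13.3 CPM in BM Gr-1hi, and from 53.5 and 41.3 CPM in SP Gr-1lo to 9.64 and 13.7 CPM in SP Gr-1hi. The subsets did not overlap in either tissue, whereas the tissues overlapped in Gr-1hi cells. The log2 FC was −1.82 ± 0.22 in BM (edgeR adjusted p = 7.93e-05) and −2.02 ± 0.22 in SP (edgeR adjusted p = 5.71e-05), and the call held in each of the 15 alternatives in both tissues.

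Myb, whose product keeps progenitors in cycle, had 66.6 and 65.5 CPM in BM Gr-1lo, 28.4 and 35.1 CPM in BM Gr-1hi, 35.9 and 27.1 CPM in SP Gr-1lo, and 10.7 and 18.2 CPM in SP Gr-1hi. BM Gr-1lo was the highest group, SP Gr-1hi was the lowest, and SP Gr-1lo overlapped BM Gr-1hi. The log2 FC between subsets was −1.06 ± 0.24 in BM and −1.12 ± 0.24 in SP, with edgeR adjusted p = 0.00368 and 0.00328. Both lie just past the FC threshold: the call was lost in 7 of 15 alternatives in BM, RLE scaling, DESeq2, quantile-normalized TPM, the fit to 4 libraries, and the fits without library 5, 6 or 9. In SP it was lost in 5 of 15, RLE scaling, quantile-normalized TPM, and the fits without library 5, library 7, or both (−0.60).

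The monocyte factors Irf8 and Klf4 had the largest differences of the 10. Irf8 measured 228 and 337 CPM in BM Gr-1lo and 192 and 237 CPM in SP Gr-1lo. In Gr-1hi cells it was 5.38 and 10.5 CPM in BM and 51.0 and 46.6 CPM in SP, so the Gr-1lo groups overlapped and the Gr-1hi groups did not. The log2 FC was −5.16 ± 0.35 in BM (edgeR adjusted p = 5.85e-06), an FC of 35.7, and −2.14 ± 0.30 in SP (edgeR adjusted p = 0.000420), an FC of 4.40.

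Klf4, needed for monocytes of the Ly6C-high type, measured 158 and 186 CPM in BM Gr-1lo and 119 and 101 CPM in SP Gr-1lo, but 1.35 and 3.14 CPM in BM Gr-1hi and 6.75 and 8.01 CPM in SP Gr-1hi. No groups overlapped. Its log2 FC was −6.28 ± 0.32 in BM (edgeR adjusted p = 7.66e-07), an FC of 77.5, and −3.90 ± 0.28 in SP (edgeR adjusted p = 6.72e-06), an FC of 15.0. Klf4 in both tissues and Irf8 in BM were the factors that passed the stricter rule, and they did so in each fit that left out 1 library.

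Gfi1, the repressor that opposes IRF8 on the granulocyte path, was not called between the subsets. It measured 35.8 and 33.1 CPM in BM Gr-1lo, 18.7 and 20.5 CPM in BM Gr-1hi, 31.5 and 15.8 CPM in SP Gr-1lo, and 6.00 and 15.9 CPM in SP Gr-1hi. The 2 SP libraries of each subset lay far apart, and the SP subsets overlapped. The log2 FC of −0.81 ± 0.47 in BM (edgeR adjusted p = 0.160) and −1.11 ± 0.48 in SP (edgeR adjusted p = 0.0779) did not pass the test. In SP it ranged from −1.99 to −0.56 when 1 library was left out, and it was called without library 6, without library 8, and by DESeq2.

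Runx1 varied least of the 10. It measured 62.8 and 68.7 CPM in BM Gr-1lo, 67.8 and 69.0 CPM in SP Gr-1lo, 54.6 and 55.7 CPM in BM Gr-1hi, and 54.0 and 55.1 CPM in SP Gr-1hi. The 8 values lie within an FC of 1.28, although the subsets did not overlap. Its log2 FC of −0.25 ± 0.08 in BM (edgeR adjusted p = 0.0222) and −0.33 ± 0.08 in SP (edgeR adjusted p = 0.00720) was under the FC threshold. In BM it was close to the median of all genes, −0.17, which RLE scaling moved to −0.03, and on quantile-normalized TPM the BM log2 FC of Runx1 was 0.01.

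Cebpb encodes C/EBPβ, the factor of emergency granulopoiesis that MDSCs depend on. It measured 64.9 and 109 CPM in BM Gr-1lo, 118 and 131 CPM in BM Gr-1hi, 149 and 100 CPM in SP Gr-1lo, and 263 and 261 CPM in SP Gr-1hi. The SP Gr-1hi libraries were the highest and close together, BM Gr-1hi overlapped SP Gr-1lo, and the 2 libraries of each Gr-1lo group were spread. The log2 FC between subsets was 0.52 ± 0.25 in BM (edgeR adjusted p = 0.0963, not called) and 1.08 ± 0.25 in SP (edgeR adjusted p = 0.00578). The SP call was lost in 5 of 15 alternatives: without the filter on low counts, on quantile-normalized TPM, and without library 5, 6 or 8.

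**Figure D2:**
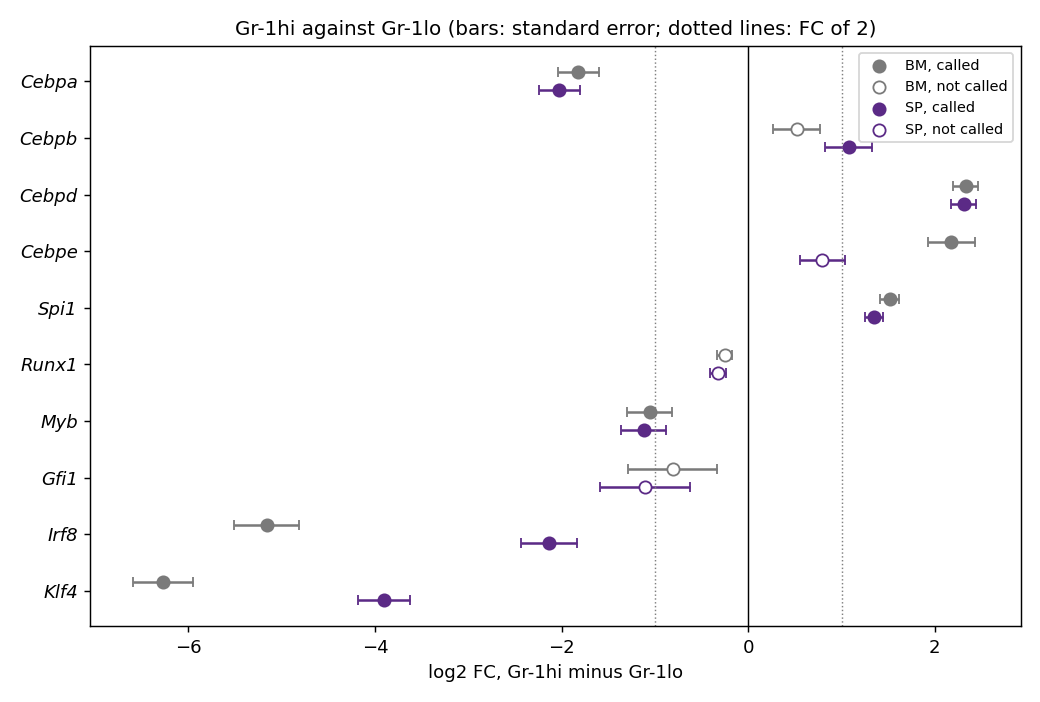
Log2 FC of Gr-1hi minus Gr-1lo for each factor in BM (grey) and SP (purple), with the standard error as bars, filled points where the gene was called and dotted lines at an FC of 2. Klf4 lies at −6.28 in BM and −3.90 in SP, Irf8 at −5.16 and −2.14, and Cebpd at 2.33 and 2.31.

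The second comparison asked whether the same sorted subset differs between SP and BM. In Gr-1lo cells 0 of the 10 factors were higher in SP, beside 3.84% of all genes tested, and 1 was lower, beside 0.215% of all genes. In Gr-1hi cells 3 were higher, beside 14% of all genes, and 1 was lower, beside 1.48% of all genes. The median log2 FC of the factors was −0.11 in Gr-1lo and 0.03 in Gr-1hi cells, against −0.01 and 0.03 over all genes.

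In Gr-1hi cells Irf8, Klf4 and Cebpb rose in SP. The log2 FC of Irf8 was 2.63 ± 0.32 (edgeR adjusted p = 0.00137), an FC of 6.17, and that of Klf4 was 1.73 ± 0.31 (edgeR adjusted p = 0.00495). Cebpb rose by a log2 FC of 1.08 ± 0.26 (edgeR adjusted p = 0.0155). Each SP Gr-1hi library was above both BM Gr-1hi libraries for these genes. Even so, Klf4 remained at 7.38 CPM in SP Gr-1hi, beside 110 CPM in SP Gr-1lo.

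These calls differed in how well they held. The Irf8 difference ranged from 2.12 to 3.08 over 15 alternatives and was not called in 1 of them, without libraries 5 and 7 together, where it was 2.58 with edgeR adjusted p = 0.0657. For Klf4 the log2 FC was 1.87 without those libraries (edgeR adjusted p = 0.0599), and the call was also lost on quantile-normalized TPM. The log2 FC of Klf4 was 1.16 without library 9 and 2.35 without library 10, both called. The Cebpb call was lost without library 5, 6, 9 or 10, and without 5 and 7 together (1.09, edgeR adjusted p = 0.103), although its log2 FC stayed between 0.93 and 1.15.

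Myb fell in SP in both subsets, by 1.07 ± 0.23 on the log2 scale in Gr-1lo cells (edgeR adjusted p = 0.0384) and by 1.13 ± 0.24 in Gr-1hi cells (edgeR adjusted p = 0.00998). All SP libraries were below all BM libraries of the same subset. The Gr-1lo call was lost in 7 of 15 alternatives, on quantile-normalized TPM and without library 7, 8, 9, 10, 11 or 12. The Gr-1hi call was lost on quantile-normalized TPM, without library 5, where the log2 FC was −0.88, and without libraries 5 and 7, where it was −0.79. Proliferation genes (Mki67, Top2a, Mcm5, Pcna and Birc5) were called in 0 of 5 cases between tissues in either subset. Their sum was 1624 to 1626 CPM in SP and 1934 to 2158 CPM in BM for Gr-1lo cells. There the tissues did not overlap and 0 of the 5 genes had a positive log2 FC. For Gr-1hi cells the sum was 278 to 344 CPM in SP and 303 to 461 CPM in BM. In this subset the tissues overlapped and 2 of the 5 genes had a positive log2 FC. The part of proliferating cells in the Myb result was not tested.

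The other 6 factors were not called between tissues. Cebpe differed in sign between the subsets, with a log2 FC of 0.64 ± 0.24 in Gr-1lo (edgeR adjusted p = 0.191) and −0.74 ± 0.24 in Gr-1hi (edgeR adjusted p = 0.0449), an FC of 1.68. Without library 6 the Gr-1hi value was −1.31 and was called. Gfi1 had a log2 FC of −0.55 ± 0.46 in Gr-1lo and −0.85 ± 0.49 in Gr-1hi, neither past the test. Without library 6 its Gr-1hi value was −1.79 and was called, and without libraries 5 and 7 its Gr-1lo value was −1.14 and was called. Cebpa had −0.27 ± 0.21 and −0.47 ± 0.22, Spi1 0.27 ± 0.10 and 0.10 ± 0.10, Cebpd 0.09 ± 0.13 and 0.07 ± 0.13, and Runx1 0.06 ± 0.08 and −0.02 ± 0.08. The sign of Spi1 and Cebpd in Gr-1hi cells, and of Cebpd in Gr-1lo cells and Runx1 in both, changed under at least 1 alternative.

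**Figure D3:**
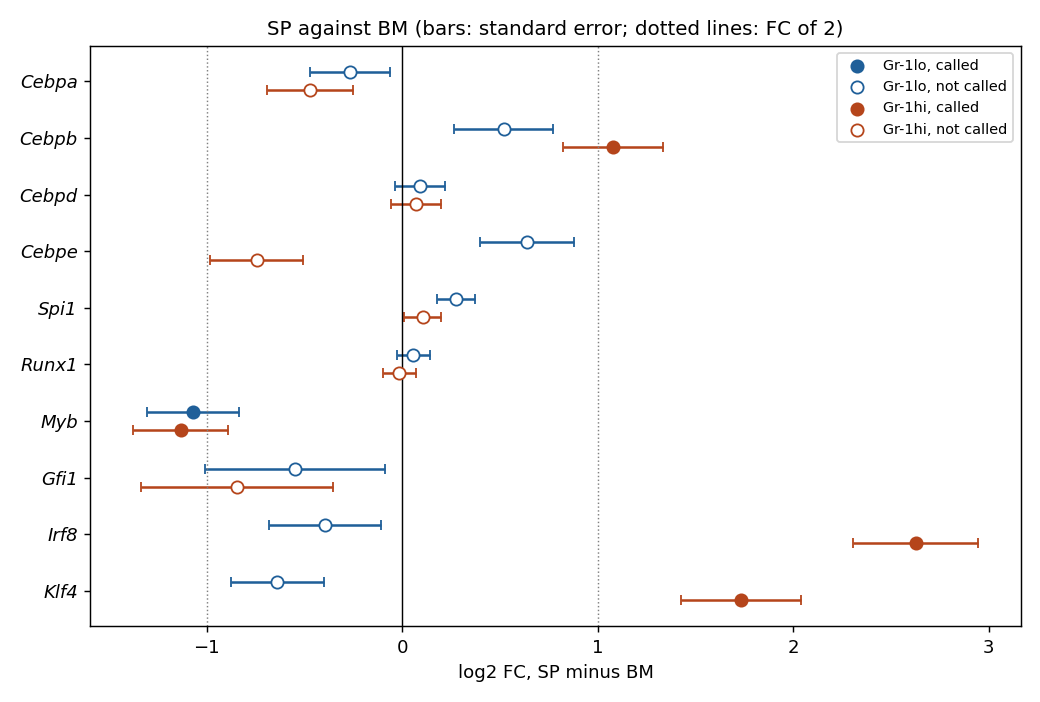
Log2 FC of SP minus BM for each factor in Gr-1lo (blue) and Gr-1hi (red) cells, with the standard error as bars, filled points where the gene was called and dotted lines at an FC of 2. Irf8 lies at −0.40 in Gr-1lo and 2.63 in Gr-1hi cells, Klf4 at −0.64 and 1.73, and Myb below −1 in both.

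Whether the gap between subsets differs between tissues was tested by the interaction, the Gr-1hi minus Gr-1lo difference in SP minus that in BM. Of the 10 factors 2 were called positive, beside 7.74% of all genes tested, and 1 negative, beside 2% of all genes. The median was −0.07 for the factors and 0.03 over all genes. Irf8 had an interaction of 3.02 ± 0.43 on the log2 scale (edgeR adjusted p = 0.00629) and Klf4 one of 2.37 ± 0.39 (edgeR adjusted p = 0.00879). For both, the subsets were thus closer in SP than in BM, with lower SP Gr-1lo means and higher SP Gr-1hi means. Without libraries 5 and 7 the interaction was 2.84 for Irf8 (edgeR adjusted p = 0.157) and 2.64 for Klf4 (edgeR adjusted p = 0.0837), and every other alternative kept both calls.

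The interaction of Cebpe was −1.38 ± 0.34 (edgeR adjusted p = 0.0314), again with the subsets closer in SP. It was lost in 7 of 13 alternatives, without library 7, 8, 9, 10, 11 or 12 and without 5 and 7 together. Secondary granule genes (Ltf, Lcn2, Camp and Ngp), which need C/EBPε, showed an interaction of the same sign. Their median was −2.25, and 4 of 4 were called negative, beside 2% of all genes tested. Their summed level was 2212 to 2375 CPM in BM Gr-1lo, 6382 to 6603 CPM in SP Gr-1lo, 64094 to 72760 CPM in BM Gr-1hi, and 29219 (library 5) to 51648 CPM (library 6) in SP Gr-1hi. The 4 groups had the same order as for Cebpe, and library 5 was the lower of the SP Gr-1hi libraries for both.

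Markers of several other blood cells were higher in SP than in BM in both subsets. Of all genes tested, 3.84% were called higher and 0.215% lower in SP in Gr-1lo cells, and 14% and 1.48% in Gr-1hi cells. The median log2 FC of the B cell list was 4.44 in Gr-1lo and 4.36 in Gr-1hi cells, although the summed level was highest in SP Gr-1hi. The 10 B cell genes (such as Cd79a and Ms4a1) summed to 8.07 to 9.90 CPM in BM Gr-1lo, 66.7 to 83.8 in SP Gr-1lo, 16.3 to 19.9 in BM Gr-1hi and 360 to 537 in SP Gr-1hi, and 10 of 10 were called higher in SP Gr-1hi than in BM Gr-1hi. The 8 dendritic cell genes summed to 27.0 to 30.6 CPM in SP Gr-1hi and 6.81 to 7.10 CPM in BM Gr-1hi, with 3 called higher and 1 lower. B cells and dendritic cells are known to express Irf8.

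The 9 splenic macrophage genes summed to 928 to 1090 CPM in SP Gr-1hi and 589 to 650 CPM in BM Gr-1hi. In SP 6 of 9 were called higher, beside 14% of all genes tested. Most of each sum was Slc40a1, at 751 CPM on average in SP Gr-1hi and 480 CPM in BM Gr-1hi, an FC of 1.56 that was not called. The 6 called genes (Spic, C1qa, C1qb, C1qc, Cd5l and Mertk) averaged only 5.37 to 24.6 CPM each in SP Gr-1hi and 1.31 to 9.97 CPM in BM Gr-1hi. The 7 T cell genes summed to 56.5 to 90.8 CPM in SP Gr-1hi and 6.32 to 9.05 CPM in BM Gr-1hi, with 6 called higher. The 5 monocyte genes (Csf1r, Ccr2, Ly6c2, Cx3cr1 and F13a1) summed to 991 to 1117 CPM in SP Gr-1hi and 1319 to 1709 CPM in BM Gr-1hi. Of these, 1 of 5 was called higher, Csf1r, and 0 lower, beside 14% and 1.48% of all genes. Most of each sum was Ly6c2, at 708 CPM on average in SP Gr-1hi and 1324 CPM in BM Gr-1hi. The log2 FC was positive for 2 of the 5, Csf1r and Cx3cr1 (8.32 against 3.41 CPM). None of the B cell, T cell and splenic macrophage genes was at 0 in a Gr-1hi library; in BM Gr-1hi the dendritic cell genes Zbtb46, Xcr1 and Cd209a were at 0 in 1 library each. The part of these cells in the Irf8 and Klf4 results was not tested.

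In SP Gr-1lo cells 9 of 10 B cell genes, 7 of 7 T cell genes and 6 of 9 splenic macrophage genes were called higher than in BM Gr-1lo. The summed splenic macrophage genes were 187 to 198 CPM in SP Gr-1lo and 128 to 157 CPM in BM Gr-1lo. Hmox1, which was not called, was the largest part, at 91.3 CPM on average in SP Gr-1lo and 70.7 CPM in BM Gr-1lo. Between SP and BM, plasma cell genes were called higher in 3 of 3 tested in each subset, and erythroid genes in 6 of 6 tested in Gr-1lo and 5 of 6 in Gr-1hi cells. NK cell genes were called higher in 0 of 3 in Gr-1lo and 2 of 3 in Gr-1hi cells, and platelet genes in 0 of 2 in both. Eosinophil and basophil genes had 0 of 7 higher and 1 lower in Gr-1lo, and 2 higher and 2 lower in Gr-1hi cells. Stem and progenitor genes had 1 of 4 higher and 1 lower in each subset. These counts stand beside 3.84% higher and 0.215% lower of all genes in Gr-1lo, and 14% and 1.48% in Gr-1hi cells.

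**Figure D4:**
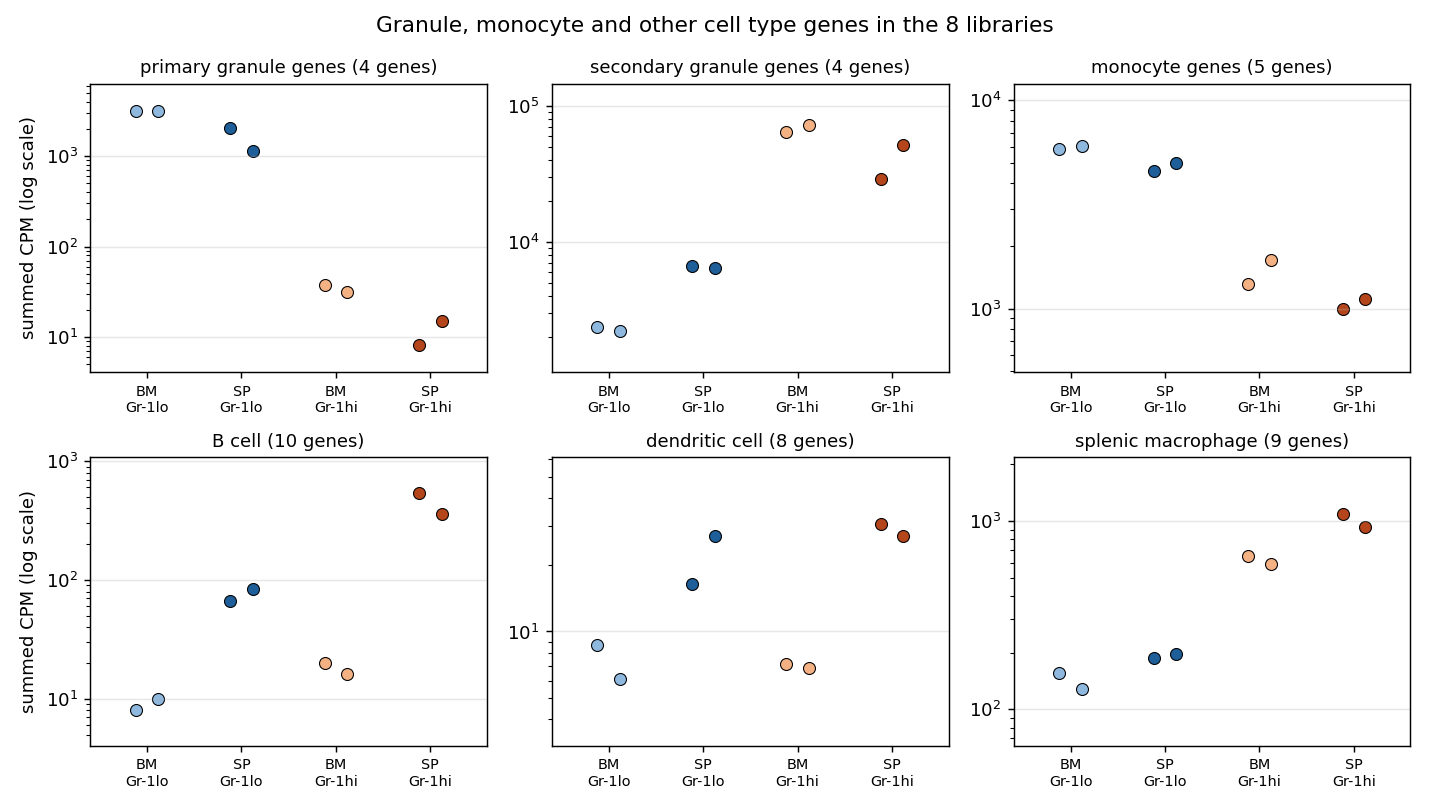
Summed CPM on log axes for 6 gene lists, with 1 point per library and the 4 groups along each horizontal axis. The B cell genes reach 360 to 537 CPM in SP Gr-1hi, and the primary granule genes are at 3121 to 3162 CPM in BM Gr-1lo and at 8.20 to 15.0 CPM in SP Gr-1hi.

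The 4 C/EBP genes were next set against each other, per kb of exon, since their products share a binding site and can pair. Their sum was 104 to 132 CPM per kb in BM Gr-1lo, 131 to 179 in SP Gr-1lo, 268 to 272 in BM Gr-1hi and 295 to 334 in SP Gr-1hi. Cebpa made up 18.6% ± 2.73 (SD, n = 2) of it in BM Gr-1lo and 11.6% ± 0.428 in SP Gr-1lo, but 2.27% ± 0.594 in BM Gr-1hi and 1.39% ± 0.217 in SP Gr-1hi. The leading member was Cebpb in 3 groups, at 48.1% ± 9.29 in BM Gr-1lo, 53.0% ± 3.09 in SP Gr-1lo and 55.6% ± 5.17 in SP Gr-1hi. In BM Gr-1hi it was Cebpe, at 44.4% ± 1.83, with Cebpb at 30.6% ± 1.91. The share of Cebpe in SP Gr-1hi, 22.5% ± 7.20, lay near its shares in Gr-1lo cells of BM (22.9% ± 4.56) and SP (26.9% ± 2.23). Cebpd took 10.5% ± 2.00 and 8.43% ± 0.435 in BM and SP Gr-1lo, and 22.7% ± 3.14 and 20.6% ± 2.25 in BM and SP Gr-1hi. The leading member depended on the division by exon length. Without it Cebpd led in BM Gr-1hi, at 44.2% beside 28.7% for Cebpe, and Cebpb still led in the other groups. In SP Gr-1hi Cebpb then had 43.5% and Cebpd 40.0%. With 2 libraries against 2 an exact permutation test cannot give a p below 0.333, so the shares were not tested.

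**Figure D5:**
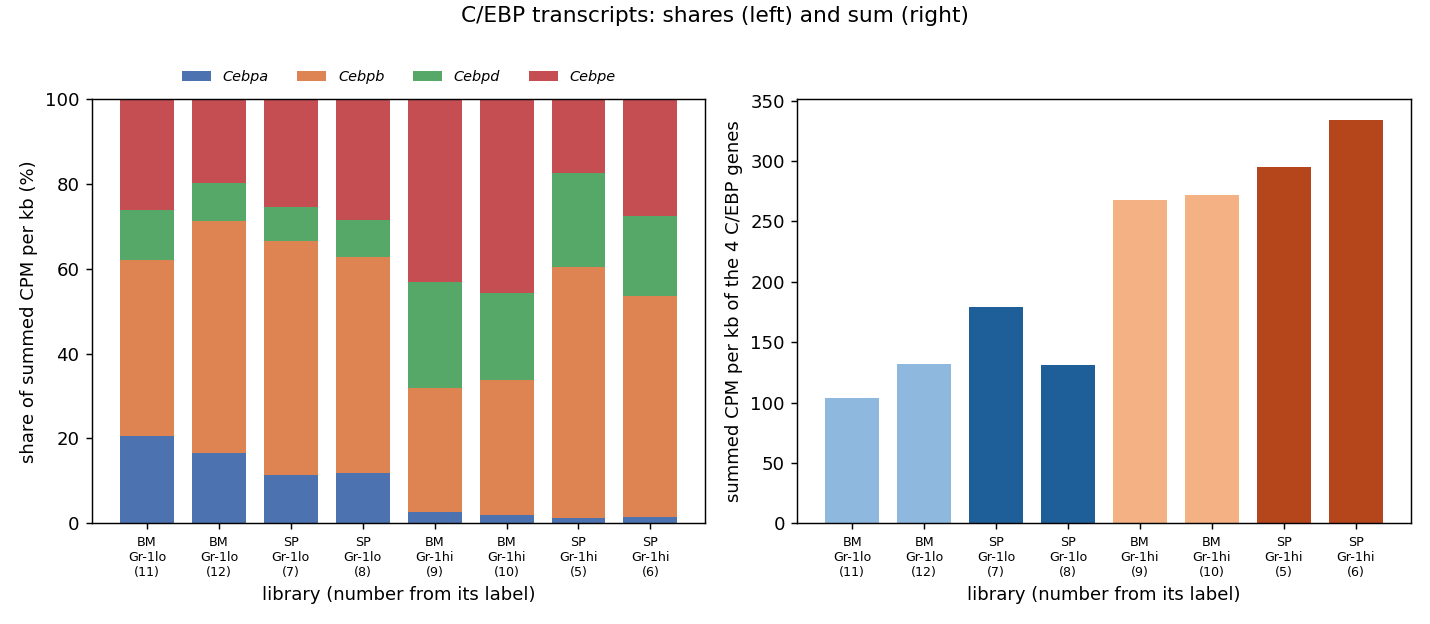
Left, the share (%) of Cebpa, Cebpb, Cebpd and Cebpe in their summed CPM per kb in each library, and right, the sum itself. Per kb, Cebpe leads in both BM Gr-1hi libraries and Cebpb in the other 6, and the sum is 268 or more CPM per kb in the Gr-1hi libraries and 179 or less in the Gr-1lo libraries.

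Ratios of factors were formed per kb within a library, and those of the opposing factors Gfi1 and Irf8, and Klf4 and Gfi1, set BM Gr-1hi apart from the other groups. The log2 ratio of Gfi1 to Irf8 was 2.95 and 2.11 in BM Gr-1hi, −1.94 and −0.41 in SP Gr-1hi, −1.46 and −2.76 in SP Gr-1lo, and −1.53 and −2.20 in BM Gr-1lo. Gfi1 exceeded Irf8 in BM Gr-1hi, and Irf8 exceeded Gfi1 in each of the other 6 libraries, whose 3 groups overlapped each other. The log2 ratio of Klf4 to Gfi1 was −3.73 and −2.65 in BM Gr-1hi, 0.23 and −0.92 in SP Gr-1hi, 1.98 and 2.75 in SP Gr-1lo, and 2.21 and 2.55 in BM Gr-1lo. Here SP Gr-1hi lay between BM Gr-1hi and the Gr-1lo groups, which overlapped. The log2 ratio of Cebpe to Cebpa averaged 0.29 in BM Gr-1lo, 1.21 in SP Gr-1lo, 4.32 in BM Gr-1hi and 3.98 in SP Gr-1hi, and that of Cebpa to Spi1 averaged −2.16, −2.71, −5.52 and −6.09 in the same groups.

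Granule genes are controlled by several of these factors and mark stages of granulocyte development. Primary granule genes (Mpo, Elane, Prtn3 and Ctsg), made in promyelocytes, summed to 3121 to 3162 CPM in BM Gr-1lo, 1128 to 2042 in SP Gr-1lo, 31.0 to 38.0 in BM Gr-1hi and 8.20 to 15.0 in SP Gr-1hi. They were called lower in Gr-1hi cells for 4 of 4 genes in both tissues, and lower in SP than in BM for 1 of 4 in Gr-1lo (Ctsg, 70.3 against 181 CPM on average) and 3 of 4 in Gr-1hi cells. The 4 groups had the order of the Cebpa means and also of the Gfi1 means, although for each of these factors some neighbouring groups overlapped. Secondary granule genes were called higher in Gr-1hi cells for 4 of 4 in both tissues, and higher in SP than in BM for 3 of 4 in Gr-1lo and 0 of 4 in Gr-1hi cells. Mature neutrophil genes (such as Csf3r and Cxcr2) were called higher in Gr-1hi cells for 5 of 5 in both tissues. Of all genes tested, 24.2% were called higher and 33.1% lower in Gr-1hi cells of BM, and 22.3% and 27.4% in SP. Between tissues, 3.84% were called higher and 0.215% lower in SP in Gr-1lo cells, and 14% and 1.48% in Gr-1hi cells.

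Relatives and partners of the factors were read from lists, whose counts stand beside the shares of all genes given above: between subsets 24.2% higher and 33.1% lower in BM and 22.3% and 27.4% in SP, and between tissues 3.84% higher and 0.215% lower in Gr-1lo and 14% and 1.48% in Gr-1hi cells. Of 6 rows for C/EBP relatives and regulators, 5 were called higher in Gr-1hi cells in BM and 4 in SP, and 0 were lower. Trib1, whose product marks C/EBPα for degradation, rose by a log2 FC of 4.20 ± 0.86 in BM (edgeR adjusted p = 0.00645) and 2.69 ± 0.80 in SP (edgeR adjusted p = 0.0280), opposite to Cebpa. The 2 libraries of a group were far apart for Trib1 in SP Gr-1hi (105 and 374 CPM) and BM Gr-1lo (7.76 and 26.0 CPM). Its relative Trib2 was the gene of this list called between SP and BM, at 5.59 CPM in SP Gr-1hi against 0.410 CPM in BM Gr-1hi, and at 1.09 CPM in SP Gr-1lo against 2 and 3 counts in BM Gr-1lo. Ddit3 was listed under 2 identifiers, so its reads may be split.

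Among 9 PU.1 relatives and ETS partners, 4 were called higher in SP than in BM in Gr-1lo and 2 in Gr-1hi cells, and 0 were lower. Spib, a relative of PU.1 used in B cells and plasmacytoid dendritic cells, averaged 30.1 CPM in SP Gr-1hi and 3.001 CPM in BM Gr-1hi, a log2 FC of 3.32 ± 0.27 (edgeR adjusted p = 0.000187). Spic, used in splenic macrophages, averaged 9.18 and 1.31 CPM, a log2 FC of 2.80 ± 0.41 (edgeR adjusted p = 0.00200). Between subsets, 4 of the 9 rose in Gr-1hi cells in BM and 3 in SP, led by Ets2 (4.52 ± 0.20 in BM and 3.56 ± 0.19 in SP, edgeR adjusted p = 3.16e-07 and 1.55e-06).

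Of 8 partners of IRF8, 4 were called higher in SP than in BM in Gr-1hi cells and 1 in Gr-1lo cells. A positive interaction was called for 4, as for Irf8, and a negative one for 0, beside 7.74% and 2% of all genes tested. Irf4, the nearest relative of Irf8 and a factor of B and plasma cells, averaged 10.2 CPM in SP Gr-1hi and 1.25 CPM in BM Gr-1hi (log2 FC 3.03 ± 0.32, edgeR adjusted p = 0.000461). Batf3, a partner of IRF8 in dendritic cells, had 40 and 42 counts in SP Gr-1hi and 1 and 3 counts in BM Gr-1hi. Zeb2, a monocyte and dendritic cell factor, averaged 100 and 42.1 CPM (1.25 ± 0.21, edgeR adjusted p = 0.00363), with an interaction of 1.12 ± 0.29 (edgeR adjusted p = 0.0368). Between subsets, 1 was called higher and 4 lower in BM Gr-1hi cells, and 1 higher and 3 lower in SP.

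Of 8 relatives of KLF4 and monocyte-macrophage factors, 2 were called higher in SP Gr-1hi than in BM Gr-1hi, among them Maf (10.5 against 4.25 CPM, log2 FC 1.29 ± 0.18, edgeR adjusted p = 0.00143). In Gr-1lo cells 1 was called, Maf (1.02 ± 0.16, edgeR adjusted p = 0.00667), and 0 of the 8 had a called interaction. Between subsets 3 of the 8 rose and 2 fell in Gr-1hi cells of each tissue. Klf2 was among those that rose, and its log2 FC was 2.39 ± 0.18 between the BM subsets and 2.05 ± 0.18 between the SP subsets.

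Of 6 genes for a relative and corepressors of GFI1, 0 were called between SP and BM in either subset. In Gr-1hi cells Ehmt2, a histone methyltransferase, fell by 2.62 ± 0.10 in BM and 1.96 ± 0.10 in SP, and the deacetylase gene Hdac2 fell by 2.01 ± 0.12 and 1.86 ± 0.12, so 2 of 6 were called lower in each tissue, a share close to that of all genes, as against 1 and 0 higher. Of 9 relatives and partners of RUNX1 and MYB, 1 was called between SP and BM, Mybl1 in Gr-1hi cells (5.91 against 1.59 CPM, log2 FC 1.90 ± 0.45, edgeR adjusted p = 0.0140). Its level in library 5 (8.44 CPM) was well above that in library 6 (3.38 CPM). Mybl2, a cell cycle factor, fell in Gr-1hi cells by 3.11 ± 0.16 in BM and 2.46 ± 0.15 in SP, whereas Runx2 rose by 2.48 ± 0.12 and 1.78 ± 0.12 beside the nearly flat Runx1. In all, 4 of these 9 rose and 2 fell in BM, and 3 rose and 1 fell in SP.

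For each factor, the genes with the most similar profile were found by Pearson's r of log2(CPM + 1) over the 8 libraries, among 8596 genes of at least 10 CPM on average. The values describe these libraries, which fall into Gr-1hi and Gr-1lo sets. The 3 most similar genes were Gcc2, Trim30b and Nfatc1 for Spi1 (r = 0.998, 0.998 and 0.997), Cherp, Kmt5c and Cnpy2 for Cebpa (0.997, 0.995 and 0.995), and Zfand2a, Ganc and Gm22175 for Cebpb (0.973, 0.938 and 0.933). They were Trim39, Prrg2 and Rnf167 for Cebpd (0.999, 0.998 and 0.998), and Hvcn1, Ptgir and 1810055G02Rik for Cebpe (0.997, 0.996 and 0.994). For Irf8 they were Txndc5, Map4k1 and Vars (0.998, 0.996 and 0.996), and for Klf4 Gtf3a, Mak16 and Mcm4 (0.999 each). For Myb they were Ltn1, Ubl4a and Hnrnpk (0.994, 0.982 and 0.974), for Gfi1 Gtf2e2, Srp54b and Ercc6 (0.980, 0.974 and 0.974), and for Runx1 Leprot, Mapkapk2 and March5 (0.991, 0.988 and 0.985). Cebpb and Gfi1 had the loosest matches.

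Exons of 6 of the 10 factors overlap a gene on the other strand, and how strand was set in counting is given only by the name of the table. The partners of Cebpa, Gfi1, Runx1 and Myb had at most 11, 26, 6 and 220 counts per library. The partners of Cebpb (Tmem189, 312 shared bases) and Cebpd (Spidr, 562 shared bases) had 2858 to 5629 and 1348 to 2403 counts, so reads from the shared bases could be assigned to either gene if strand was not used. Irf8 lies within the bounds of Gm20388 on the same strand, with 0 shared exon bases and 711 to 5646 counts, and Cebpe, Spi1 and Klf4 overlap no other gene.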

How the data were processed

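Total RNA of sorted CD11b+Gr-1hi and CD11b+Gr-1lo cells was sequenced from stranded mRNA libraries. The authors checked reads with FastQC, filtered them with Sickle, aligned them to GRCm38.p6 with STAR and counted them per gene with featureCounts, and the deposited table holds these raw counts for 54188 genes in 8 libraries (33453580 to 68316154 counts each), without normalization. Groups were taken from the library labels.

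From these counts, low genes were removed by filterByExpr with default settings (edgeR 4.0.16, R 4.3.3), libraries were scaled by TMM, and 1 robust quasi-likelihood fit covered the 4 groups and all 8 libraries, which leaves 4 residual degrees of freedom. Benjamini-Hochberg adjustment ran over 17650 genes. The procedure was also run on simulated counts in which only a small share of genes was changed. That run does not show how the fit behaves where many genes differ, as between the subsets here. A gene was called when FC was 2 or more and adjusted p 0.05 or less, beside a rule for the subsets of adjusted p below 0.01 and FC above 8. SE is the absolute log2 FC divided by the square root of F. CPM per kb used exon lengths of GENCODE M21, which holds 53947 of the 54188 identifiers; the other 241 have no such value. With 2 libraries per group, p-values measure only the spread between these libraries, which may be partly technical, and leave the precision low.

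Alternatives were RLE and upper-quartile scaling, no filter, DESeq2 1.42.0, an exact test on quantile-normalized TPM summing to at least 10 (after the study, which tested such values), fits to the 4 libraries compared, fits without each library, and a fit without libraries 5 and 7. The genes named are the 10 factors; of each list of relatives, partners or stage genes, the called genes, at most 3 per list and comparison by size of the log2 FC; the 3 genes most like each factor; and genes that check the labels. A gene that this rule would name is not reported here. Some members of cell type lists were named after their values were seen. The factors and lists were chosen with earlier results of these data known.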

Additional observations from a re-analysis of the deposited data

Results flagged for a closer look

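The gap between Gr-1hi and Gr-1lo cells differed between SP and BM by the interaction test for 3 of the 10 factors. Of all genes tested, 7.74% were called positive and 2% negative. For Irf8 the log2 interaction was 3.02, the log2 FC being −5.16 for the BM subsets and −2.14 for those of SP. For Klf4 it was 2.37, from −6.28 in BM and −3.90 in SP. For Cebpe it was −1.38, from 2.18 in BM and 0.79 in SP. Library 5, 1 of the 2 SP Gr-1hi libraries, had 63.5 CPM of Cebpe against 114 CPM in library 6, and without it the Cebpe interaction was −1.12 (edgeR adjusted p = 0.00635). Groups of 2 libraries were too small for a check of single outlying libraries.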

How the results depend on the processing

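Of the 50 log2 values of the 10 factors, 22 kept their direction and their side of the threshold under every alternative, and of the 730 values computed under alternatives 651 were unchanged in this sense, 46 lost a call, 8 gained one and 25 changed sign. The calls of Cebpa and Cebpd between subsets, of Irf8 and Klf4 between subsets and of Cebpe in BM held under all alternatives. Depth does not limit these genes, whose lowest count was 36, but 2 libraries per group leave the error estimate weak, and the cause of each change was not tested. Where a group is left with 1 library, that library is assumed to vary like the others. No paired analysis was possible because which libraries share a mouse is not stated.

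On quantile-normalized TPM the number of factors called was 0 for SP against BM in Gr-1lo, 2 in Gr-1hi and 4 between the SP subsets, and the number of all genes called was 273, 688 and 4602 in these comparisons and 5679 between the BM subsets, against 716, 2727, 8761 and 10109 in the reported fit. Without the filter, 1077 genes were called between SP and BM in Gr-1lo. Without libraries 5 and 7, 2 factors were called for SP against BM in Gr-1lo and 0 in Gr-1hi (1617 genes in all), and 0 for the interaction (819 genes, against 1719). With 1 library left out at a time, the factors called numbered 0 to 1 for SP against BM in Gr-1lo, 2 to 5 in Gr-1hi, 6 to 7 between subsets in each tissue and 2 to 3 for the interaction, and 2 to 2 in BM and 1 to 1 in SP at an FC above 8. All genes called then numbered 389 to 785, 1715 to 3518, 9388 to 10356 (BM), 8177 to 8999 (SP) and 915 to 2488. Without division by exon length the Cebpa share was 25.8% in BM Gr-1lo, 17.5% in SP Gr-1lo, 3.09% in BM Gr-1hi and 1.92% in SP Gr-1hi. The leading C/EBP gene in BM Gr-1hi was then Cebpd, at 44.2%, in place of Cebpe. The order of the 4 groups changed for 2 factors with RLE scaling (Cebpb and Cebpd) and for 3 with library size alone (Cebpb, Myb and Runx1).

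These values changed sign under some alternative, none of them called in the reported fit, and the ranges here are those of the fits that leave out 1 library each. For SP against BM in Gr-1lo, Runx1 was −0.012 by DESeq2 and ranged from −0.006 to 0.126, and Cebpd ranged from −0.086 to 0.256 and was −0.10 without 5 and 7. In Gr-1hi, Cebpd was −0.0056 with RLE scaling and ranged from −0.156 to 0.133, Spi1 ranged from −0.054 to 0.107, and Runx1 was 0.0615 with upper-quartile scaling, 0.0052 without the filter and 0.0146 without 5 and 7. Between the BM subsets Runx1 was 0.0134 on quantile-normalized TPM. For the interaction, Cebpd was 0.0189 with upper-quartile scaling and 0.166 without 5 and 7 and ranged from −0.262 to 0.158, Gfi1 ranged from −1.25 to 0.278 and was 0.846 without 5 and 7, Myb ranged from −0.585 to 0.174 and was 0.510 without 5 and 7, and Cebpa was 0.25 without 5 and 7.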

Other observations

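Of 13 progenitor and erythroid factors, 11 were tested. Between subsets, 5 were called higher and 4 lower in BM Gr-1hi cells, beside 24.2% and 33.1% of all genes tested. In SP Gr-1hi cells 3 were called higher and 3 lower, beside 22.3% and 27.4% of all genes. Gata2, a stem cell and basophil factor, averaged 4.29 CPM in BM Gr-1hi against 0.386 CPM in BM Gr-1lo (log2 FC 3.47 ± 0.35, edgeR adjusted p = 2.31e-05), and Meis1, a stem cell factor, fell by 3.19 ± 0.33 on the log2 scale in SP Gr-1hi cells (edgeR adjusted p = 3.29e-05). Between tissues, Gata2 was lower in SP Gr-1hi (1.75 CPM, log2 FC −1.30 ± 0.31, edgeR adjusted p = 0.0144). Hoxa9 had 1 and 0 counts in SP Gr-1hi and 6 and 3 in BM Gr-1hi.

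Myc, a driver of growth that neutrophils shut off, had a positive interaction, as Irf8 and Klf4 did, but unlike them it was also called lower in SP Gr-1lo. It measured 17.5 and 18.1 CPM in BM Gr-1lo, 8.80 and 6.98 CPM in SP Gr-1lo, 1.38 and 1.11 CPM in BM Gr-1hi, and 5.94 and 7.08 CPM in SP Gr-1hi. The SP subsets overlapped, and the BM subsets were far apart. Its log2 FC of SP minus BM was −1.18 ± 0.16 in Gr-1lo (edgeR adjusted p = 0.00404) and 2.37 ± 0.21 in Gr-1hi cells (edgeR adjusted p = 0.000231), and its interaction was 3.55 ± 0.26 (edgeR adjusted p = 0.00153).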
